A study of Zea mays with 2 samples.

Results

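The genes described here are the translation factors and aminoacyl-tRNA synthetases of maize (Zea mays) endosperm, chosen because their deposited description names a translation or eukaryotic initiation factor, an elongation factor, a peptide chain release factor, or a tRNA synthetase or ligase. Descriptions that also name transcription were left out, which removed 4 genes. The rule gave 83 of the 33283 genes listed. Their RNA was measured by sequencing of endosperm, the storage tissue of the kernel, at 15 days after pollination in the defective kernel mutant dek33 and in wild type. The DEK33 gene is known to encode a pyrimidine reductase of riboflavin synthesis, and the allele, zygosity and genetic background of either group are not stated by the labels. The labels state a triplicate design, but each genotype has 1 deposited value per gene, so no value below has an error, no difference has a replicate check or a test, and every difference is one between these 2 libraries.

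Initiation factors bring the initiator tRNA, the mRNA cap and the small ribosomal subunit together and locate the start codon. Elongation factors then deliver each aminoacyl-tRNA and move the ribosome along, release factors end the chain at a stop codon, and aminoacyl-tRNA synthetases charge each tRNA with its amino acid. Plastids and mitochondria use a bacterial kind of these factors beside the cytosolic kind. Endosperm in the filling phase makes large amounts of storage protein and is rich in this machinery.

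Values are FPKM, fragments per kilobase of transcript scaled to library size, as the authors computed them. Differences are log2((dek33 + 1)/(wild type + 1)), which understates the change of low genes. Over the 21688 expressed genes, those that reached 1 FPKM in either library, the median difference was 0.44, or a factor of 1.36 in favour of dek33. A centred difference has this median subtracted. Genes counted as higher or lower differed by at least 2-fold in this ratio, with its pseudocount of 1, and had at least 5 FPKM in 1 or more libraries. A gene slightly past 2-fold in plain FPKM can thus fall short of the limit. FPKM summed to 761571 in dek33 and 672660 in wild type, and the read depth behind it is unknown. Genes described as zeins, the main storage proteins, made up 16.7% of it in dek33 and 31.2% in wild type. The 6 endosperm markers (zeins, opaque-2 and starch enzymes) ranged over 466 to 8396 FPKM in dek33 and over 245 to 27300 FPKM in wild type, so the labelled tissue was seen in both. They summed to 27554 FPKM in dek33 and 80212 FPKM in wild type, with 4 of 6 below their wild type value and 3 of these counted as lower. The 5 embryo and maturation markers summed to 489 FPKM in dek33 and 8450 FPKM in wild type, with all 5 lower and none at 0. The 3 basal transfer layer markers summed to 163 FPKM in dek33 and 297 FPKM in wild type, and the 15 chlorophyll-binding protein genes had at most 1.47 FPKM in dek33 and 1.67 FPKM in wild type, with 2 of them listed at 0 in wild type. The part of these marker differences in the values below was not tested. In such bulk tissue, fewer cells of a type and less RNA per cell cannot be told apart.

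Almost every translation factor and synthetase gene had a higher FPKM in dek33 than in wild type. Of the 83 genes, 80 were above their wild type value, or 96.4%, against 71.7% of all 33283 genes. These sets are unlike, since 78 of the 83 reached 1 FPKM but only 21688 of the 33283 did. Genes at or near 0 in both libraries can lower the share of all genes. The FPKM of the 83 genes summed to 11019 in dek33 and 5709.7 in wild type, a ratio of 1.93. Of the 72 with at least 5 FPKM, 25 were at least 2-fold higher, or 34.7%, and 0 were lower. Over all 14348 genes tested in this way, 14.8% were higher and 4.02% lower. The largest differences among these 72 were those of an elongation factor 1-alpha copy (GRMZM2G057535), the lysine--tRNA ligase gene (GRMZM2G386714), an elongation factor Tu gene (GRMZM2G313678) and an initiation factor 3 subunit gene (GRMZM2G060567).

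The count depended on the scaling. After centring, 4 of the 72 were at least 2-fold higher, or 5.56%, near the 4.40% of all genes tested, and 0 were lower, against 6.79% of all genes tested. A smaller difference was shared by most members. Of the 78 members with at least 1 FPKM, 69 lay above the median of all expressed genes, or 88.5%, against 50.0% of all expressed genes by construction. Their median centred difference was 0.39, with an interquartile range of 0.20 to 0.63, against -0.36 to 0.31 for all expressed genes. The count of members above 0 was 69 under centring, 65 under a trimmed mean of M values, 69 under upper quartile scaling and 71 with totals made equal without zeins. As a share of all FPKM, the group made up 1.45% in dek33 and 0.849% in wild type, and as a share of FPKM without zeins 1.74% in dek33 and 1.23% in wild type, which is 1.41 times as much.

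**Figure D1:**
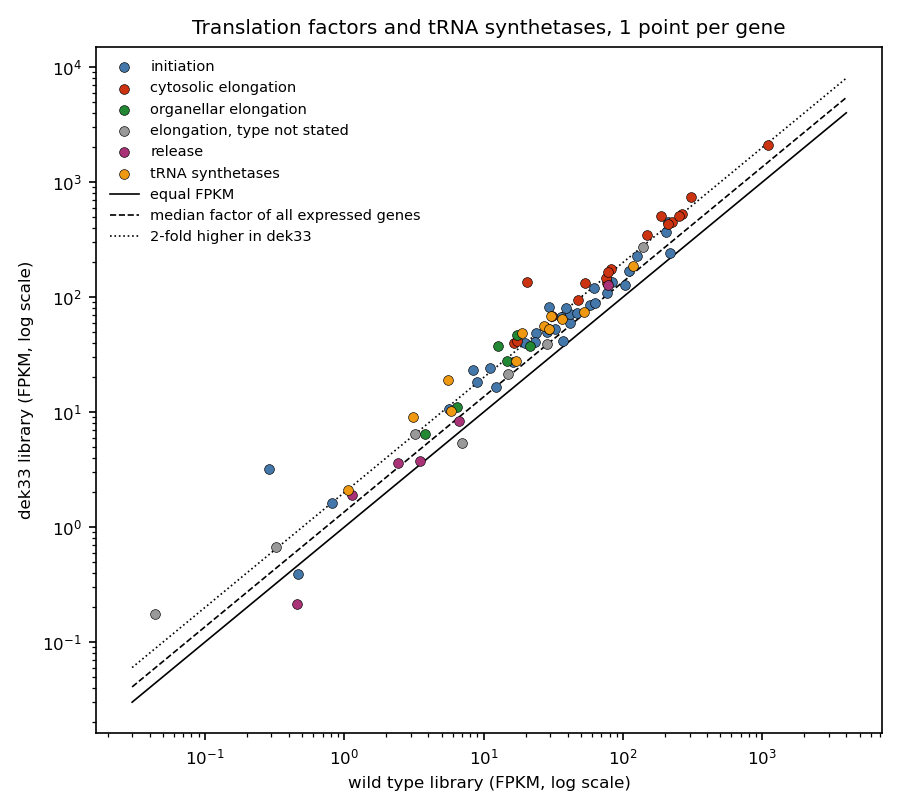
FPKM of each gene in the dek33 library (vertical, log scale) against the wild type library (horizontal, log scale), coloured by role, with lines for equal values, for the median factor of 1.36 and for 2-fold. Of the 83 genes, 82 are drawn, since the plastid IF-1 gene is listed at 0 in wild type. Above the median line lie 73 of the 82, 40 of them under the 2-fold line and 33 on or above it. These counts use plain FPKM ratios without the pseudocount or a minimum FPKM, so they exceed the counts in the text.

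Abundant genes as a whole stood higher in dek33, so the members were set beside genes of their own level. Between 20 and 100 FPKM on average over both libraries, 35 of 36 members lay above the median of all expressed genes, against 65.1% of all 4303 genes in that range. The median centred difference there was 0.41 for members and 0.15 for all genes. At 100 FPKM and above, 20 of 22 members lay above it, against 68.0% of 797 genes, with medians of 0.50 for members and 0.27 for all genes. From 5 to 20 FPKM the 13 members had a median of 0.28 and all genes one of 0.011. From 1 to 5 FPKM the 7 members had a median of 0.083 and all genes one of -0.15. In each of the 4 ranges the members' median was the higher one, and it was smallest in the lowest range.

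**Figure D2:**
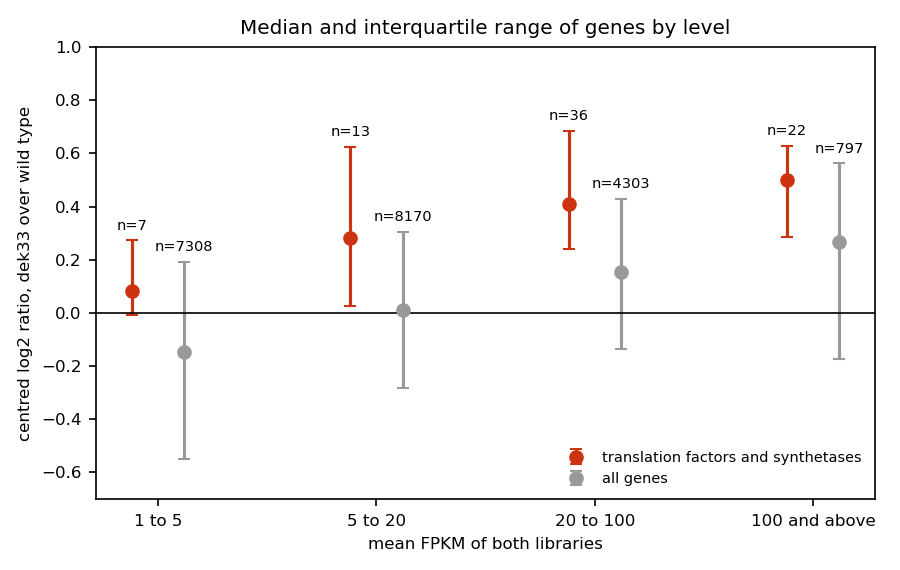
Centred log2 ratio of dek33 over wild type (vertical) by mean FPKM of both libraries (horizontal), for translation factors and synthetases and for all genes. Points are medians and bars the interquartile range of genes, not an error over replicates, and at 100 FPKM and above the median is 0.50 for members and 0.27 for all genes.

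Cytosolic elongation factors had the highest median centred difference among the roles, which were not matched for level. The 18 genes of this role are copies of few factors, 9 of them of elongation factor 1-alpha, and copies alike in sequence may share reads. They are thus not 18 separate observations. Of these 18 genes, all with at least 5 FPKM, 12 were at least 2-fold higher in dek33, or 66.7%, against 14.8% of all genes tested. A further 6 were neither and 0 lower. After centring 1 was higher, or 5.56%, near the 4.40% of all genes tested. Each of the 18 lay above the median of all expressed genes and above 0 under the other 3 scalings, with centred differences of 0.32 to 2.22 and a median of 0.64. Initiation factors had a median of 0.34 over 32 genes, tRNA synthetases one of 0.37 over 12 genes and organellar elongation factors one of 0.38 over 6 genes. Release factors had one of -0.013 over 5 genes, which was 0.039 to 0.084 under the other 3 scalings. Only 2 of these 5 had at least 5 FPKM, and the pseudocount draws the uncentred ratios of low genes toward 0. The roles differed in level as well. Median wild type values over all genes of a role were 79.7 FPKM for cytosolic elongation, 34.2 FPKM for initiation and 23.0 FPKM for synthetases. They were 13.8 FPKM for organellar elongation and 2.95 FPKM for release. The part of level in the order of the roles was not tested, and whether their median centred differences differ could not be tested.

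**Figure D3:**
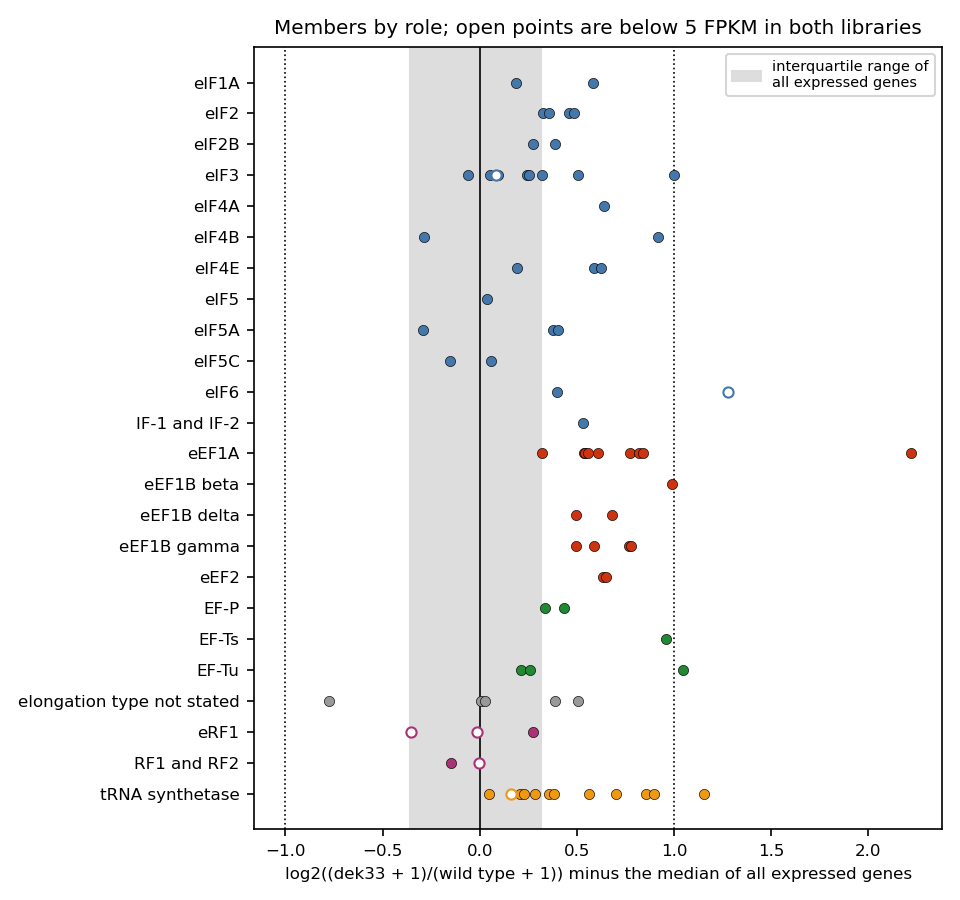
Centred log2 ratio of dek33 over wild type (horizontal) for each gene, by role (rows), with the interquartile range of all expressed genes shaded and 2-fold marked by dotted lines. Elongation factor genes eEF1A, eEF1B and eEF2 lie between 0.32 and 2.22, while release factor genes with at least 1 FPKM lie between -0.36 and 0.27. Of those 5 release factor genes, only 2 had at least 5 FPKM.

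Elongation factor 1-alpha (eEF1A), the GTPase that carries aminoacyl-tRNA to the cytosolic ribosome, had 9 gene copies, which summed to 2987 FPKM in dek33 and 1356 FPKM in wild type. The most abundant copy, GRMZM2G153541 (chromosome 9, 88067950 to 88071249, B73 RefGen_v3), had 739 FPKM in the dek33 library and 309 FPKM in the wild type library. Copy GRMZM2G001327 (chromosome 6, 136879633 to 136883005) had 527 FPKM in dek33 against 267 FPKM in wild type, and GRMZM2G149768 (elfa2) had 450.0 FPKM in dek33 against 225 FPKM in wild type. Both libraries ranked these copies in the same order. Copy GRMZM2G154218 (elfa3) had 434 FPKM in dek33 against 209 FPKM in wild type and AC233866.1_FG006 had 344 FPKM in dek33 against 148 FPKM in wild type. The lower copies GRMZM2G343543, GRMZM2G110509 and GRMZM2G151193 had 132 FPKM in dek33 against 77.2 FPKM in wild type, 131 FPKM in dek33 against 53.6 FPKM in wild type and 95.2 FPKM in dek33 against 47.6 FPKM in wild type. Those 8 copies had centred differences of 0.32 to 0.84.

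One eEF1A copy stood apart from the other 8. GRMZM2G057535 (chromosome 7, 157638031 to 157641018) had 135 FPKM in the dek33 library and 20.5 FPKM in the wild type library, a centred difference of 2.22, and 99.6% of all expressed genes had a lower one. It made up 4.51% of the eEF1A sum in dek33 and 1.51% in wild type, a share that no scaling of a library changes. The shares of the other copies differed by -2.04 to 1.99 percentage points, dek33 minus wild type, those of GRMZM2G001327 being 17.6% in dek33 and 19.7% in wild type. eEF1A copies are alike in sequence, so the authors' counting could move reads between them, and single copies are less certain than the sum. On chromosome 6, the copies GRMZM2G154218, GRMZM2G149768 and GRMZM2G001327 lie in a row with gaps of 49.5 and 120.2 kb, and their centred differences were 0.61, 0.56 and 0.54.

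The eEF1B complex, which recharges eEF1A with GTP, had 7 genes. Before centring 5 were at least 2-fold higher, or 71.4%, against 14.8% of all genes tested, 0 were lower and 2 neither. After centring 0 were higher, against 4.40% of all genes tested. The elongation factor 1-delta gene GRMZM2G031545 (chromosome 7, 165423394 to 165426172), an exchange subunit, was the most abundant of all 83 genes, with 2109.6 FPKM in the dek33 library and 1104 FPKM in the wild type library. Its second copy GRMZM2G153569 had 67.9 FPKM in dek33 against 30.7 FPKM in wild type. The elongation factor 1-beta gene GRMZM2G439201, likewise an exchange subunit, had 504 FPKM in dek33 against 186 FPKM in wild type, a centred difference of 0.99 just under the 2-fold limit. Its printed locus overlaps a gene of little signal, GRMZM2G137064. Among 4 genes of the gamma subunit, which holds the complex together, GRMZM2G122871 had 511 FPKM in dek33 against 250.2 FPKM in wild type and GRMZM2G059580 had 146 FPKM in dek33 against 75.8 FPKM in wild type. The pair GRMZM2G320497 and GRMZM2G134582 had 41.6 FPKM in dek33 against 17.3 FPKM in wild type and 39.8 FPKM in dek33 against 16.6 FPKM in wild type. That pair lies 12.9 kb apart on chromosome 4 and shares 1 RefSeq record, so reads could be split between the copies.

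Elongation factor 2 (eEF2), the translocase of the cytosolic ribosome, had a pair of genes 129 kb apart on chromosome 1 with equal printed spans of 4311 bases. GRMZM2G040369 had 175 FPKM in the dek33 library and 81.7 FPKM in the wild type library. GRMZM2G095851 had 165 FPKM in dek33 against 77.8 FPKM in wild type. The pair differed little from each other, at centred values of 0.65 and 0.64, and their reads may likewise be shared. The balance of eEF2 to eEF1A was close in the libraries, with a ratio of summed FPKM of 0.114 in dek33 and 0.118 in wild type. The ratio of eEF1B to eEF1A was 1.14 in dek33 and 1.24 in wild type. The beta subunit alone, over the gamma subunit, had a ratio of 0.683 in dek33 and 0.518 in wild type.

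**Figure D4:**
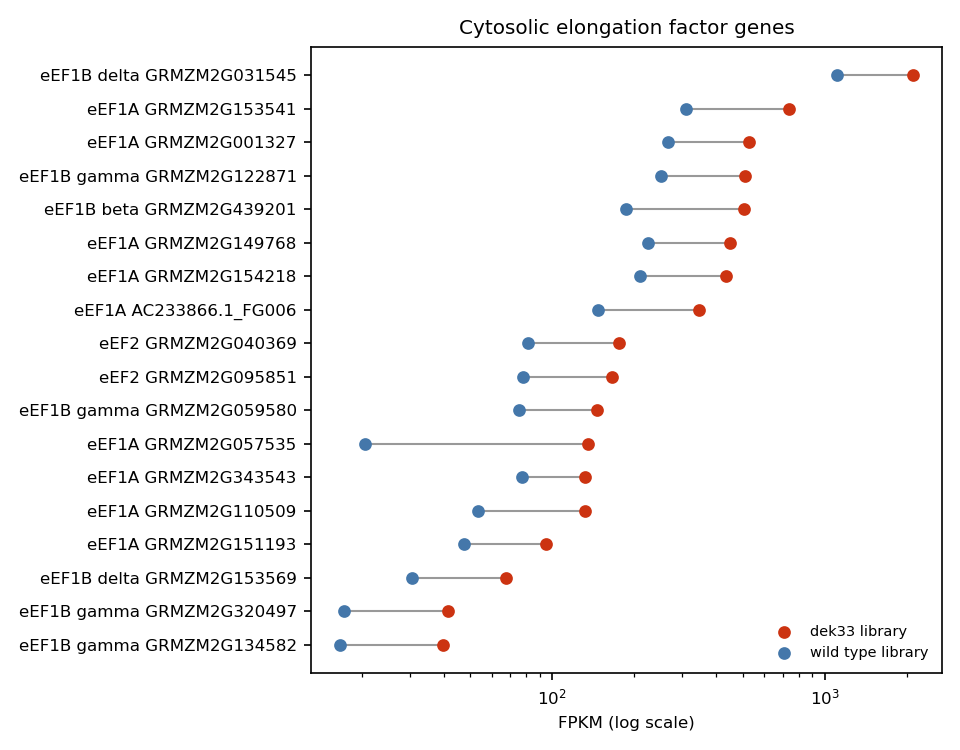
FPKM (horizontal, log scale) of the 18 cytosolic elongation factor genes (rows), with the dek33 library and the wild type library as joined points. Every gene is higher in dek33, and GRMZM2G057535 has the longest line, at 134.9 FPKM in dek33 and 20.5 FPKM in wild type.

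Initiation factors had a lower median centred difference than cytosolic elongation factors. Of 30 genes with at least 5 FPKM, 6 were at least 2-fold higher in dek33, against 14.8% of all genes tested. A further 24 were neither and 0 lower. After centring 1 was higher, or 3.33%, slightly under the 4.40% of all genes tested. Among the factors that bring the initiator tRNA and check the start codon (eIF1A, eIF2, eIF2B and eIF5), 1 of 9 was higher, or 11.1%. The share of all genes tested was 14.8%. All 9 factor genes lay above the median of all expressed genes, against 8 under the trimmed mean and under upper quartile scaling. Their centred differences ran from 0.039 to 0.58. The eIF1A genes GRMZM2G101859 and GRMZM2G476555 had 169.9 FPKM in dek33 against 109.6 FPKM in wild type and 49.1 FPKM in dek33 against 23.7 FPKM in wild type, and only the second of them passed 2-fold before centring. Initiation factor 5 (GRMZM2G165917), which triggers GTP hydrolysis on eIF2, had 88.0 FPKM in dek33 against 62.8 FPKM in wild type, near the shift of all genes.

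The 3 subunits of eIF2, the carrier of initiator tRNA, had close proportions in the libraries. The alpha subunit gene GRMZM2G083262 had 67.7 FPKM in dek33 against 35.8 FPKM in wild type and the gamma subunit gene GRMZM2G117900 had 50.1 FPKM in dek33 against 28.4 FPKM in wild type. The beta subunit genes GRMZM2G080048 and GRMZM2G056462 had 119 FPKM in dek33 against 62.4 FPKM in wild type and 40.5 FPKM in dek33 against 23.4 FPKM in wild type. Alpha over gamma came to 1.35 in dek33 and 1.26 in wild type, and beta over gamma to 3.19 in dek33 and 3.02 in wild type. Of eIF2B, which recycles eIF2 by nucleotide exchange, the alpha subunit gene GRMZM2G084647 had 52.9 FPKM in dek33 against 29.4 FPKM in wild type and the delta subunit gene GRMZM2G018943 had 27.5 FPKM in dek33 against 16.4 FPKM in wild type.

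Of the 10 genes described as subunits of eIF3, the large scaffold on the small ribosomal subunit, 8 had at least 5 FPKM. Of these 0 were lower and 1 was higher, or 12.5%, near the 14.8% of all genes tested. That gene, GRMZM2G060567 (chromosome 4, 238868885 to 238872017), described as subunit 1 alpha, had 82.1 FPKM in the dek33 library and 29.6 FPKM in the wild type library. Its centred difference of 1.00 lay at the limit, and it was under 2-fold by the trimmed mean, by upper quartile scaling and with totals equal without zeins. RefSeq pairs its ID with more than 1 record, one of them for ARC6, so the identity is uncertain. The other 7 had centred differences of -0.058 (subunit 3, GRMZM2G028945, 16.4 FPKM in dek33 against 12.3 FPKM in wild type) to 0.51 (subunit 6-interacting protein, GRMZM2G062826, 18.1 FPKM in dek33 against 8.91 FPKM in wild type). The 2 genes of subunit E, GRMZM2G151549 and GRMZM2G038313, had close shares, with 57.3% from the first in dek33 and 56.0% in wild type. The largest subunit, A (GRMZM2G093050), had 58.9 FPKM in dek33 against 41.6 FPKM in wild type, subunit G (GRMZM2G064133) had 136 FPKM in dek33 against 83.6 FPKM in wild type, and subunit 2 (GRMZM2G143330) had 84.8 FPKM in dek33 against 58.3 FPKM in wild type. The putative family genes GRMZM2G094083 and GRMZM2G038028 were low, at 1.60 FPKM in dek33 against 0.812 FPKM in wild type and 0.388 FPKM in dek33 against 0.464 FPKM in wild type.

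Of the 6 genes of cap-dependent factors, 4 were at least 2-fold higher and 0 lower before centring, against 14.8% higher of all genes tested, and 0 were higher after it. Their median centred difference was 0.61. The eIF4A gene GRMZM2G027995, the RNA helicase that unwinds leaders, had 446 FPKM in the dek33 library and 210.2 FPKM in the wild type library and was the most abundant initiation factor. Of the cap-binding proteins, eIF4E GRMZM2G445905 had 79.9 FPKM in dek33 against 38.7 FPKM in wild type, isoform 4E GRMZM2G022019 had 24.2 FPKM in dek33 against 11.0 FPKM in wild type and eIF4E GRMZM2G002616 (eIF4E1) had 72.6 FPKM in dek33 against 46.4 FPKM in wild type. The ID of GRMZM2G445905 is paired with an eIF4F record and with a cellulose synthase record, so its value may belong in part to another gene.

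The genes of eIF4B, an RNA-binding helper of eIF4A, differed from each other. GRMZM2G139614 (chromosome 5, 180719990 to 180724177) had 23.1 FPKM in the dek33 library and 8.40 FPKM in the wild type library, with a centred difference of 0.92. GRMZM2G066815 (chromosome 10, 125449560 to 125453832) had 41.6 FPKM in dek33 against 37.2 FPKM in wild type, with a centred difference of -0.28. The first copy thus gave 35.7% of the eIF4B sum in dek33 and 18.4% in wild type, while the sum was 64.6 FPKM in dek33 and 45.6 FPKM in wild type. A movement of reads between the copies was not tested.

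A like split was seen in eIF5A, a factor with the modified lysine hypusine that helps the ribosome over difficult peptide bonds. GRMZM2G113696 (chromosome 2, 209954275 to 209957586) had 366 FPKM in the dek33 library and 204 FPKM in the wild type library. GRMZM2G144030 (chromosome 7, 163041712 to 163045353) had 239.8 FPKM in dek33 against 216 FPKM in wild type, the lowest centred difference of the initiation genes with at least 5 FPKM, -0.29. GRMZM2G113696 gave 59.4% of the eIF5A sum in dek33 and 47.9% in wild type, so the order of these copies differed between the libraries. In wild type they were close, at 204 and 216 FPKM. Whether reads moved between these copies was not tested. The third copy, GRMZM2G082974, had 10.6 FPKM in dek33 against 5.60 FPKM in wild type and overlaps GRMZM5G881605 in its printed locus. eIF5A over eEF1A came to 0.206 in dek33 and 0.314 in wild type.

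None of the remaining initiation genes with at least 5 FPKM reached 2-fold with the pseudocount. The eIF5C genes, whose description comes from a Drosophila protein, had 127 FPKM in dek33 against 104 FPKM in wild type (GRMZM5G877316) and 108 FPKM in dek33 against 76.3 FPKM in wild type (GRMZM2G012416), with centred differences of -0.15 and 0.06. The eIF6 gene GRMZM2G318475, a factor that keeps ribosomal subunits apart and takes part in making the large subunit, had 228 FPKM in dek33 against 127 FPKM in wild type. A second eIF6 gene, GRMZM2G304121, had 3.23 FPKM in dek33 against 0.286 FPKM in wild type and was under the minimum for counting. The IF-2 gene GRMZM2G028139, of the bacterial kind, had 39.6 FPKM in dek33 against 19.7 FPKM in wild type, a factor of 1.96 with the pseudocount and slightly past 2-fold without it. The IF-1 gene of the plastid genome (GRMZM5G830210) had 0.198 FPKM in dek33 and was listed at 0 in wild type.

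Organellar elongation factors had 2 of 6 genes at least 2-fold higher, or 33.3%, against 14.8% of all genes tested, and 0 lower. After centring 1 was higher, or 16.7%, against 4.40% of all genes tested. Elongation factor Tu, the organellar counterpart of eEF1A, had 3 genes under that plain description, without the putative Tu family genes given below. GRMZM2G313678 (chromosome 5, 1028626 to 1038047) had 37.6 FPKM in the dek33 library and 12.8 FPKM in the wild type library, a centred difference of 1.05. GRMZM2G407996 and GRMZM2G106061 had 11.1 FPKM in dek33 against 6.43 FPKM in wild type and 6.50 FPKM in dek33 against 3.77 FPKM in wild type, with 0.26 and 0.21. Of the sum of these 3 genes, GRMZM2G313678 gave 68.2% in dek33 and 55.6% in wild type. Its printed locus overlaps a glutaredoxin gene, GRMZM2G013695, that had 41.7 FPKM in dek33 and 20.7 FPKM in wild type, and the part of that overlap was not tested. Elongation factor Ts (GRMZM2G095534, chromosome 3, 220213735 to 220218348), the mitochondrial exchange factor of EF-Tu, had 47.1 FPKM in dek33 against 17.3 FPKM in wild type, a centred difference of 0.96. Elongation factor P genes, bacterial relatives of eIF5A, had 37.7 FPKM in dek33 against 21.5 FPKM in wild type (GRMZM2G022662) and 27.8 FPKM in dek33 against 14.8 FPKM in wild type (GRMZM2G129804) and did not reach 2-fold.

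A further 7 genes are described as putative translation elongation factor family proteins. GRMZM2G458283 and GRMZM5G859846 among them are described as of the elongation factor Tu family, but were not counted with the EF-Tu genes above. GRMZM2G458283 had 39.4 FPKM in dek33 against 28.7 FPKM in wild type, a centred difference of 0.0051. Of the 7 genes, 5 had at least 5 FPKM. Among those 5, 0 were higher, against 14.8% of all genes tested, and 0 lower. Centred differences ran from -0.77 to 0.51 over those with at least 1 FPKM. AC203173.3_FG004 was the most abundant, with 271 FPKM in dek33 against 139.7 FPKM in wild type. GRMZM2G003157 was the lowest of all members with at least 5 FPKM, with 5.38 FPKM in dek33 against 7.04 FPKM in wild type, and overlaps a ribosomal protein L37a gene in its printed locus.

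Release factor genes with at least 1 FPKM had centred differences on both sides of 0. Of 2 genes with at least 5 FPKM, 0 were higher, against 14.8% of all genes tested, and 0 lower. Their centred differences were 0.27 (GRMZM2G090274) and -0.15 (GRMZM2G155512). The main eRF1 gene GRMZM2G090274, which reads stop codons on cytosolic ribosomes, had 128 FPKM in dek33 against 77.7 FPKM in wild type, and the other eRF1 genes GRMZM2G045720 and GRMZM2G452026 had 3.74 FPKM in dek33 against 3.47 FPKM in wild type and 3.61 FPKM in dek33 against 2.43 FPKM in wild type. The bacterial kind of release factor 1 (GRMZM2G155512) had 8.35 FPKM in dek33 against 6.64 FPKM in wild type. Release factor 2 genes were low, at 1.90 FPKM in dek33 against 1.14 FPKM in wild type (GRMZM2G472382) and 0.215 FPKM in dek33 against 0.455 FPKM in wild type (GRMZM2G137498). The ratio of summed eRF1 to summed eEF1A was 0.0454 in dek33 and 0.0616 in wild type.

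Aminoacyl-tRNA synthetases had 5 of 11 genes at least 2-fold higher in dek33, or 45.5%, against 14.8% of all genes tested. A further 6 were neither and 0 lower. After centring 1 was higher, or 9.09%, against 4.40% of all genes tested. All 12 listed genes lay above the median of all expressed genes, against 11 under the trimmed mean. Lysine--tRNA ligase (GRMZM2G386714, chromosome 5, 19458986 to 19471332) had 18.9 FPKM in the dek33 library and 5.58 FPKM in the wild type library, a centred difference of 1.15. Its printed locus overlaps a ribosomal protein L10 gene, GRMZM2G087233, with 126.5 FPKM in dek33 and 54.6 FPKM in wild type, and the part of that overlap was not tested. Asparaginyl-tRNA synthetase (GRMZM2G083836) had 49.1 FPKM in dek33 against 18.9 FPKM in wild type, glutamyl-tRNA synthetase (GRMZM2G057491) had 9.14 FPKM in dek33 against 3.12 FPKM in wild type and tyrosyl-tRNA synthetase (GRMZM2G134756) had 68.6 FPKM in dek33 against 30.6 FPKM in wild type. A gene described as a tRNA synthetase beta subunit (GRMZM2G700926) had 55.6 FPKM in dek33 against 27.2 FPKM in wild type, just past 2-fold before centring. These 5 genes came to centred differences of 0.56 to 1.15.

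The other synthetases did not reach 2-fold before centring, so their centred differences are lower by construction. They ran from 0.048 to 0.38. Glutaminyl-tRNA synthetase (GRMZM2G032049), the most abundant, had 185 FPKM in dek33 against 118 FPKM in wild type, a centred difference of 0.21. Methionyl-tRNA synthetase (GRMZM2G166345), which charges the initiator tRNA as well, had 74.3 FPKM in dek33 against 52.7 FPKM in wild type and the lowest centred difference of the synthetases, 0.048. The arginyl (GRMZM2G148709), seryl (GRMZM2G169160) and cysteinyl (GRMZM2G701193) enzymes had 64.1 FPKM in dek33 against 36.5 FPKM in wild type, 27.8 FPKM in dek33 against 17.1 FPKM in wild type and 10.2 FPKM in dek33 against 5.79 FPKM in wild type. The leucyl (GRMZM5G887303) and alanyl (GRMZM2G140754) enzymes had 52.5 FPKM in dek33 against 29.3 FPKM in wild type and 2.12 FPKM in dek33 against 1.06 FPKM in wild type. Enzymes for the remaining amino acids were not analysed here. Synthetases over eEF1A came to a ratio of summed FPKM of 0.207 in dek33 and 0.255 in wild type.

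**Figure D5:**
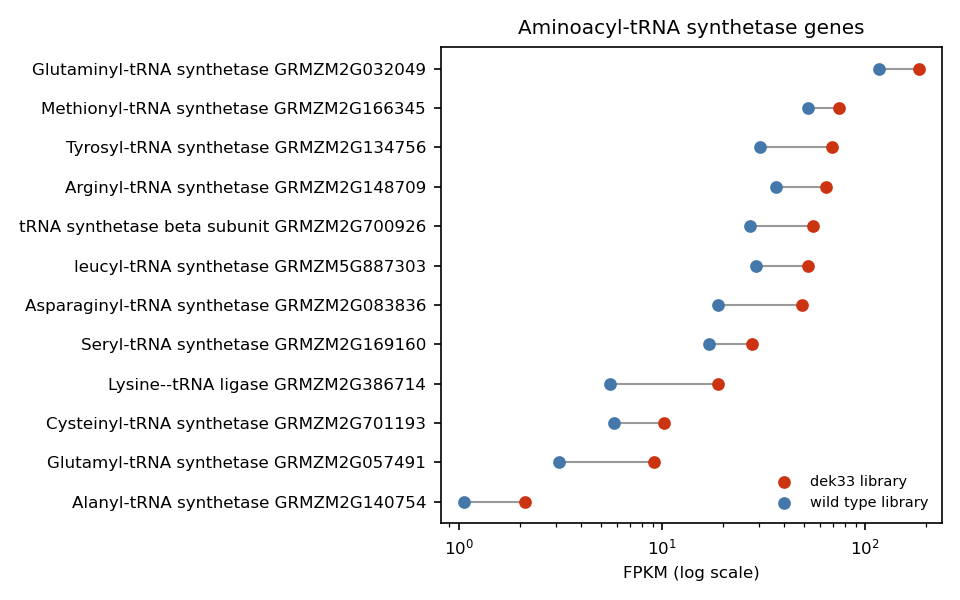
FPKM (horizontal, log scale) of the 12 aminoacyl-tRNA synthetase genes (rows), with the dek33 library and the wild type library as joined points. Every gene is higher in dek33, from the alanyl enzyme, with 2.12 FPKM in dek33 against 1.06 FPKM in wild type, to the glutaminyl enzyme, with 185 FPKM in dek33 against 118 FPKM in wild type.

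Within each library, initiation factors over cytosolic elongation factors came to a ratio of 0.444 in dek33 and 0.565 in wild type. This ratio is free of any scaling of a library, but it depends on how the roles were drawn and on abundant genes. eIF5A, counted with initiation, summed to 617 FPKM in dek33 and 425 FPKM in wild type. GRMZM2G031545 alone gave 2109.6 FPKM in dek33 and 1104 FPKM in wild type to cytosolic elongation. The summed values of both roles were higher in dek33 before centring, with 6747 FPKM in dek33 and 3196 FPKM in wild type for cytosolic elongation, and 2997 FPKM in dek33 and 1806 FPKM in wild type for initiation.

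Genes that act on these factors or beside them were called about as often as all genes tested. Of 20 related genes with at least 5 FPKM, 3 were higher, or 15.0%, against 14.8% of all genes tested, 1 was lower and 16 were neither. Centring left 0 higher and 1 lower. Their median centred difference was 0.22, with 12 of 20 above the median of all expressed genes. Deoxyhypusine synthase (GRMZM6G028994), which starts the hypusine modification of eIF5A, had 17.4 FPKM in dek33 against 5.84 FPKM in wild type. Diphthamide biosynthesis protein 1 (GRMZM2G379021), which modifies eEF2, had 7.62 FPKM in dek33 against 3.24 FPKM in wild type. A translationally-controlled tumor protein gene (GRMZM2G075624) had 420.4 FPKM in dek33 against 158 FPKM in wild type. The more abundant homolog GRMZM2G108474 had 687 FPKM in dek33 against 393 FPKM in wild type and did not reach 2-fold. One methionine aminopeptidase gene (GRMZM2G090010), of a family that trims the first methionine of new proteins, had 7.29 FPKM in dek33 against 19.3 FPKM in wild type, and the other 6 such genes did not reach 2-fold. The printed locus of GRMZM2G090010 overlaps GRMZM2G089995, with 2.34 FPKM in dek33 and 4.22 FPKM in wild type, and that of GRMZM2G379021 overlaps GRMZM2G379002, with 1.56 FPKM in dek33 and 1.26 FPKM in wild type. The part of these overlaps was not tested. Polyadenylate-binding protein genes, which bind the mRNA tail and eIF4G, had 147 FPKM in dek33 against 81.6 FPKM in wild type (GRMZM2G352129), 76.0 FPKM in dek33 against 43.7 FPKM in wild type (GRMZM5G862331) and 33.4 FPKM in dek33 against 28.4 FPKM in wild type (GRMZM2G108919).

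Cytosolic ribosomal protein genes, the other main part of the machinery, had a median centred difference of 0.38, close to the 0.39 of the translation factors and synthetases. Of them 58 of 194 were higher before centring, or 29.9%, against 34.7% here and 14.8% of all genes tested, and 0 were lower. After centring 5 were higher, or 2.58%, against 5.56% here and 4.40% of all genes tested. Organellar ribosomal protein genes had a median of 0.41. No test of a difference between these lists was possible.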

How the data were processed

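Endosperm RNA of dek33 and wild type was sequenced, with 1 deposited sample per genotype, placed by its genotype label. The authors deposited FPKM, with a single value for each gene and genotype. Reads were processed with Bowtie 0.12.2 on B73 RefGen_v3, per the submitters' processing notes. The program for FPKM, the annotation release and how 3 replicates became 1 value are, in the sources used here, not given. An FPKM of 1e-05 stands in place of 0. Ratios of low values were smooth, with at most 2.2% of 4314 genes under 0.3 FPKM in any bin of 0.05 log2 units, so read depth is unknown and no counting interval is given.

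The members and the lists were chosen with earlier results of these data known. Members and their roles came from description words. Named genes were those past 2-fold after centring and, in each of 5 roles, the 5 highest, 5 lowest and 5 most abundant with at least 5 FPKM (42 genes). The other members were named after their values were seen, to complete each role. Gene names beyond the descriptions came from a RefSeq table of assembly NAM-5.0, which matched 70 of 83 members. Locus starts were raised by 1 base: with this change 90.6% of 307 short models whose IDs contain FG had a length divisible by 3, and without it 4.56%. Of the members, 8 share a printed locus with another gene. Promoter motifs and protein sequences were not used here. Counting used a pseudocount of 1 and the limits given with the results. The procedure was run on simulated data with changes larger than most of those described here, planted in well expressed genes. That run does not bear on smaller shifts or on calls near the 2-fold limit. Figures were drawn with matplotlib 3.10.9, and values computed with scipy 1.17.1, pandas 2.3.3 and numpy 2.4.6 under Python 3.11.15.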

Additional observations from a re-analysis of the deposited data

How the results depend on the processing

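With 1 library per genotype, no replicate could be left out. No paired analysis was possible because dek33 and wild type have 1 sample each. The count of 25 higher members became 4 when centred, 2 by trimmed mean of M values, 3 by upper quartile and 3 with totals equal without zeins. By construction of the limit it was 59 at 1.5-fold and 1 at 4-fold. It stayed within 1.5 times, at 20 to 28, with pseudocounts of 0.1 and 5, other filters, without genes listed at 0 and without members sharing a printed locus. The count of lower members was 0 in every setting run. GRMZM2G057535 and GRMZM2G386714 passed 2-fold under all 4 scalings, GRMZM2G313678 under 3 and GRMZM2G060567 under centring alone. Without members sharing a printed locus, 2 of 64 were higher after centring.

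The uncentred median of members, 0.83, was 0.73 with a pseudocount of 5, 0.39 centred, 0.34 by trimmed mean, 0.37 by upper quartile and 0.40 without zeins. In the same order of the 4 scalings, initiation gave 0.34, 0.28, 0.31 and 0.34, cytosolic elongation 0.64, 0.57, 0.60 and 0.63, organellar elongation 0.38, 0.33, 0.35 and 0.39, synthetases 0.37, 0.30, 0.33 and 0.36, and release factors -0.013, 0.039, 0.059 and 0.084. A median counted as moved when it left the 95% binomial interval over members, or their range for 5 or fewer. That interval describes a spread over genes, some of them copies that may share reads. It is a yardstick for settings only and not an error of dek33 against wild type. Scaling divides out most of the shift of 1.36 by construction, with factors of 1.43 by trimmed mean, 1.40 by upper quartile and 1.37 without zeins, and the pseudocount of 5 draws ratios toward 0. Chosen after seeing the data, the median was 0.84 without the putative elongation factor family genes and 0.83 with copies summed by family. The ratio of summed FPKM was 1.91 without GRMZM2G057535. That ratio was 1.70 as a share of all FPKM and 1.41 without zeins. Unknown depth limits what can be said of low members.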

Other observations

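Further genes with related wording, chosen after their values were seen, fell outside the rule. The 5 genes described as a translation elongation/initiation factor family had centred differences of -0.0093 to 0.56, with GRMZM2G028313 at 91.7 FPKM in dek33 against 45.5 FPKM in wild type and GRMZM5G850607 at 119 FPKM in dek33 against 77.6 FPKM in wild type. The 4 transcription elongation factor genes, which share only the word with the ribosomal factors and act with RNA polymerase, had centred differences of -0.32 to -0.088. Among them SPT4 (GRMZM2G086805) had 62.7 FPKM in dek33 against 48.9 FPKM in wild type and transcription elongation factor 1 (GRMZM2G036905) had 66.8 FPKM in dek33 against 61.6 FPKM in wild type.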
